A study of Caenorhabditis elegans with 14 samples.

Results

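The microRNAs described here are the loci left when the widely studied or most abundant families of Caenorhabditis elegans are set aside. The count tables gave 224 loci the class miRNA. Of these, 36 were excluded by name: lin-4, let-7, the mir-35 group (mir-35 to mir-42), mir-51 to mir-58, mir-80 to mir-82 and 15 others, the locus lin-58 (mir-48) among them. The remaining 188 loci were the members. A member was described when it had 20 or more sense reads over the 5 total small RNA libraries or over the 4 NRDE-3 libraries, which held for 80 of the 188. Of those 80, 78 passed through the total libraries, 40 through the NRDE-3 libraries and 38 through both, and mir-255 and mir-2220 passed through the NRDE-3 libraries alone. Among the other 108 loci, 57 had at least 1 read and 51 had none. Just inside the minimum were mir-34 and mir-1830 with 21 reads each over the total libraries, and just outside it were mir-1821 and mir-2208.1 with 19 each.

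The study sequenced small RNAs of 20 to 30 nt from material labelled as embryo, in worms of the N2 background grown at 20 °C, with 1 library per group. The 5 total libraries were wild-type N2; the mutant susi-1(R457H); N2 held at 4 °C for 12 h and returned to 20 °C for 2 h, called cold shock here; and eri-1(mg366);3xflag::gfp::nrde-3 without UV and with 50 mJ/cm2 of UV followed by 2 h at 20 °C. The 4 NRDE-3 libraries held RNA recovered with an anti-FLAG antibody from 3xflag::gfp::nrde-3 after cold shock, from eri-1(mg366);3xflag::gfp::nrde-3 after the same cold shock, and from that eri-1 strain without UV and with UV. The susi-1 mutant and both N2 total libraries carried no labelled transgene, every NRDE-3 library and both eri-1 total libraries did, and the labels of the UV experiment speak of animals released onto plates without food, so that its stage may not be that of an embryo. No group had a second library, so no p-value is given, intervals cover counting error only, and the spread between cultures was not measured.

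MicroRNAs are cut from hairpin precursors by Drosha and Dicer, and the arm that stays in an Argonaute protein, mainly ALG-1 or ALG-2 in worm embryos, represses messenger RNAs that pair with the bases near its 5′ end. NRDE-3 is a different Argonaute: it carries secondary siRNAs, which are antisense to their targets, into the nucleus. ERI-1 is an exonuclease needed for a class of primary endogenous siRNAs that feed this pathway, and eri-1 animals respond more strongly to RNA interference. SUSI-1 is related to DIS3L2 and was named for suppressing siRNAs made against ribosomal RNA.

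Levels are sense reads per 1000000 reads not assigned to ribosomal RNA (CPM). Ribosomal RNA took 51.83% to 95.57% of the 4013277 to 10349062 assigned reads of a library, which left between 357435 reads (NRDE-3, eri-1 after cold shock) and 3123387 reads (total, eri-1 with UV). MicroRNAs made up 19.7% of these for N2, 7.58% for the susi-1 mutant, 4.84% for cold-shocked N2, and 25.4% and 39.5% for the eri-1 strain without and with UV. In the NRDE-3 libraries they made up 1.35% to 10.5%. Since all microRNAs can move together on this scale, each comparison is also given relative to microRNA reads. The mir-35 group, which marks embryos, had reads at 8 of 8 loci in every library, from 2293 to 102000 CPM. The 5 larval microRNAs lin-4, let-7, mir-48, mir-84 and mir-241 summed to 45.2 to 1049 CPM, highest in N2 after cold shock, where the muscle microRNA mir-1 was at 5873 CPM against at most 9.33 CPM in the other total libraries. The NRDE-3 libraries from eri-1 without and with UV stood apart. In these 2 libraries only 17.6% and 25.1% of nonzero counts were 10 or less, against 52.8% to 86.5% in the other 7, and the smallest nonzero count of a described member in the library without UV was 26.

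The members held 13.7% of the microRNA reads for N2, 12.5% for the susi-1 mutant, 9.83% for cold-shocked N2, and 7.46% and 8.21% for the eri-1 strain without and with UV. A few loci carried most of them. In N2 the 5 most abundant members, mir-72, mir-73, mir-90, mir-44 and mir-45, made up 87.8% of the members' reads. The most abundant member in all 5 total libraries was mir-72 (II:2452838-2452936, plus strand, overlapping no annotated gene; positions are those of the hairpin in the WBcel235 assembly). Its level was 12320 CPM in N2, fell to 3833 in the susi-1 mutant and 1081 after cold shock, and stood at 4511 without and 8506 with UV in the eri-1 strain. It was thus lowest after cold shock and highest in untreated N2.

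Related loci differed in level. The microRNAs mir-72, mir-73 and mir-74 are grouped with the miR-31 family of other animals, and mir-73 (X:2368765-2368863) and mir-74 (X:2369043-2369139) lie 179 nt apart on the plus strand. In N2, mir-73 was at 5960 CPM and mir-74 at 31.7 CPM. In the 5 total libraries together mir-73 had 14942 reads and mir-74 had 137, so that adjacent hairpins on the same strand were counted at very different depths. The loci mir-44 (II:11890023-11890118, plus) and mir-45 (II:11880944-11881039, minus) had nearly the same counts in every library, for example 3923 and 3836 reads in eri-1 without UV and 550 and 505 in the NRDE-3 library from eri-1 after cold shock. They are known for an identical 3p product, which held 13538 and 13574 of their mature reads, so those reads cannot be told apart between them and their values are not independent. Their 5p arms are listed apart, with 321 and 66 reads over the total libraries. The locus mir-43, which is 15 nt upstream of mir-44 on the same strand, had 48 reads over the total libraries against 28602 for mir-44.

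**Figure D1:**
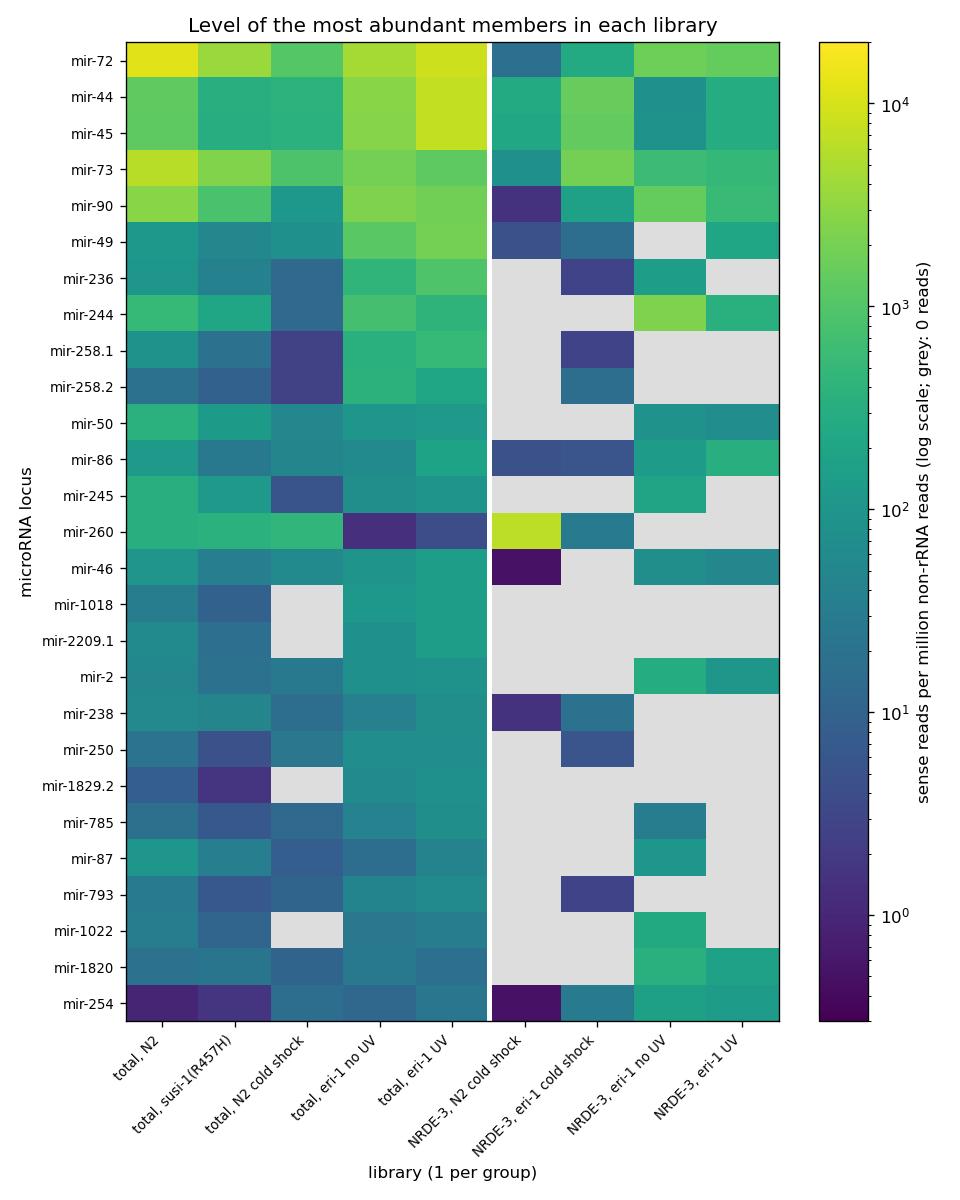
Sense reads per 1000000 non-rRNA reads (colour, log scale) of 27 abundant members (rows) in the 9 libraries (columns, 1 library per group; grey cells had 0 reads). mir-72 leads in each of the 5 total libraries, mir-260 leads in the NRDE-3 library from N2 after cold shock, and many members have no read in the NRDE-3 libraries.

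Next to the leading loci stood a broad middle class. The locus mir-49, which has a seed like that of vertebrate miR-29, was at 110.1 CPM in N2, 52.0 in the susi-1 mutant and 78.6 after cold shock, against 1148 without and 1983 with UV in the eri-1 strain. It was higher in both eri-1 libraries than in the other 3, and strain, transgene and experiment cannot be told apart in that contrast. The locus mir-83, related to the same family, had 24 reads in N2, 3 in the mutant and 0 after cold shock, and 118 in each eri-1 total library. The worm member of the miR-8/miR-200 family, mir-236, ran from 13.6 CPM after cold shock to 954.7 CPM in eri-1 with UV. The next loci by reads over the total libraries were mir-244 (3006 reads), mir-258.1 (2209), mir-258.2 (1223), mir-50 (1001) and mir-86 (837).

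The tables list most loci more than once, as a hairpin entry and as entries for the mature arms, and the members differed in how their reads fell between them. Over the total libraries the hairpin entry held a median of 55.9% of a member's reads, from 30.4% to 100.0%, and 43 of 78 members lay between 40% and 60%. For the excluded loci the median was 52.2%. The sources used here do not say how a read that matches both entries was assigned, so the sum over entries is used for each locus. In 16 of the 78 members the hairpin entry held 90% or more, against 1 of 35 excluded loci. These 16 were mir-258.1, mir-258.2, mir-260, mir-250, mir-233, mir-789.1, mir-789.2, mir-1832.1, mir-2212, mir-2214, mir-5592.1, lsy-6, mir-353, mir-354, mir-257 and mir-262. All 2209 reads of mir-258.1 (X:237369-237464, plus) and all 1223 reads of mir-258.2 (X:227953-228048, plus) were listed under the hairpin, although each has an entry for a 5p arm. The names are those of the count tables, since the Ensembl annotation calls both loci mir-258.2, and positions were matched by sequence name. Which part of the hairpin the reads of such a locus cover was not tested.

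**Figure D2:**
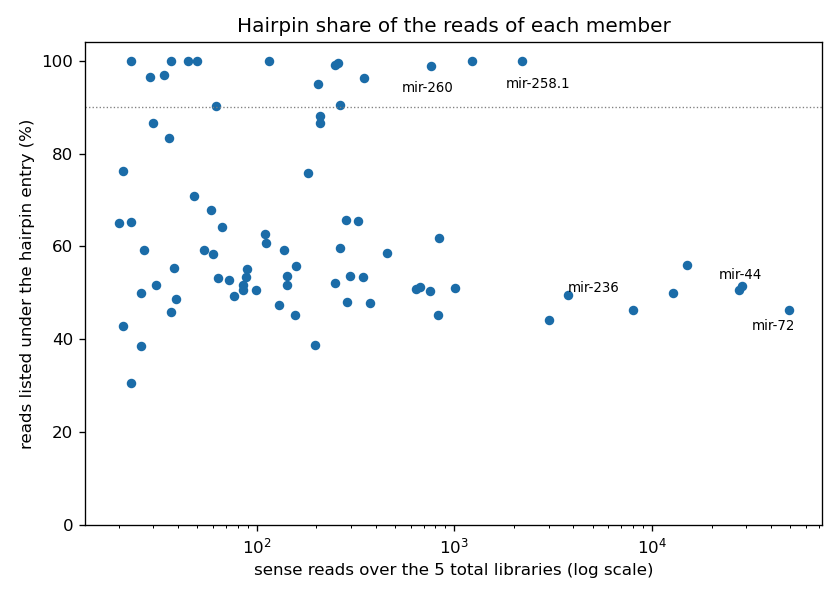
Share of a member's sense reads listed under its hairpin entry (vertical axis, percent) against its sense reads over the 5 total libraries (horizontal axis, log scale), 1 point per member with 20 or more such reads. Most points lie between 40% and 60%, and 16 of 78 lie at or above the dotted line at 90%, mir-258.1 and mir-260 among them.

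The split was not stable across libraries for every locus. In N2, mir-245 had 29 reads under the hairpin and 320 under the mature arm, whereas in susi-1(R457H) it had 68 and 11. In the same 2 libraries mir-236 had 6 and 106 against 18 and 7, and mir-244 had 116 and 423 against 110 and 22. There mir-73 had 3206 and 3181 against 1115 and 444, and mir-238 had 33 and 26 against 29 and 1. For mir-72 and mir-90 the hairpin share stayed near even, at 40.1% to 58.5% and 47.6% to 53.7% over the libraries with 20 or more reads. Mature entries alone would thus give mir-245, mir-236, mir-244, mir-73 and mir-238 a larger fall in the mutant than the sum used here.

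Among the 49 members with 20 or more mature reads in the total libraries, 14 had over 90% of them on the 5p arm and 26 on the 3p arm, and 9 used both. In mir-72 the 5p arm had 26320 reads and the 3p arm 8, whereas in the related mir-73 all 6565 mature reads were on the 3p arm. The locus mir-46 (III:13660515-13660611, plus) used both arms, with 176 reads on the 5p and 199 on the 3p arm. In the NRDE-3 libraries its 5p arm had no read. By chromosome, 28 of the 80 described loci lie on X, 13 on II, 11 each on I and IV, 10 on III and 7 on V. With non-coding RNA genes left aside, such as linc-57 at mir-231, their hairpins overlap no annotated gene at 50 loci. They lie in an intron of a gene on the same strand at 22, such as mir-2 and mir-71 in ppfr-1 and mir-86 in Y56A3A.7. At 3 loci they overlap an exon on the same strand: mir-354 in the ribosomal protein gene rps-20, mir-4813 in idhg-1, and mir-789.1 in Y51H4A.24.

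The locus mir-260 stood apart from all other members. It lies at II:3306234-3306336 on the plus strand, and all 103 nt of its hairpin are opposite exon 3 (II:3306144-3306503) of the pseudogene F39E9.7 (II:3306144-3307505, minus strand), so that sense reads of mir-260 are antisense to F39E9.7. In total RNA its reads numbered 357 for N2, 230 for the susi-1 mutant and 163 for cold-shocked N2, but 2 and 13 for the eri-1 strain without and with UV. The NRDE-3 library from N2 after cold shock held 12646 reads of mir-260 and the one from eri-1 after cold shock held 11. Both eri-1 NRDE-3 libraries of the UV experiment held 0. By counting error alone this allows up to 1.68 CPM without UV and 2.76 CPM with UV, in libraries with few low counts. Every library with a wild-type eri-1 gene, susi-1(R457H) included, thus had more mir-260 than every library with eri-1(mg366).

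Its total level was 333.1 CPM in untreated N2, 362.5 in the susi-1 mutant and 441.8 after cold shock, against 1.41 and 4.16 for the eri-1 strain. In the NRDE-3 libraries after cold shock it was at 6541 CPM in N2 and 30.8 CPM in eri-1, a level 212.6-fold lower (95% interval 118.8 to 425.9). It made up 91.2% of the members' reads in the NRDE-3 library from N2 and raised the members' share of microRNA reads there to 53.0%, against 8.88% to 13.9% in the other NRDE-3 libraries. Against the total library from N2 after cold shock, which lacks the transgene, mir-260 was 14.8-fold higher (12.7 to 17.4). The hairpin entry held 98.95% of its reads in the total libraries and 97.0% in the NRDE-3 libraries, and the annotated 3p arm (II:3306302-3306321) held 376 of the 12646 reads in N2.

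Of 5 other short entries on the plus strand opposite exons of F39E9.7, 4 had most of their reads in the NRDE-3 library from N2. The non-coding RNA entry F39E9.16 (II:3307469-3307488), opposite exon 1, had 67 reads in the NRDE-3 library from N2 after cold shock, 8 in total N2, 6 in total susi-1(R457H), 1 in total eri-1 with UV and 0 in the other 5 libraries. The entries F39E9.19, F39E9.20 and F39E9.25, opposite exon 3, had 15, 5 and 8 reads in that NRDE-3 library and 0 in all others, and F39E9.21, inside the hairpin of mir-260, had 0 in all 9 libraries. These entries are not members and their counts are low. The reads of F39E9.7 itself were not analysed here.

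**Figure D3:**
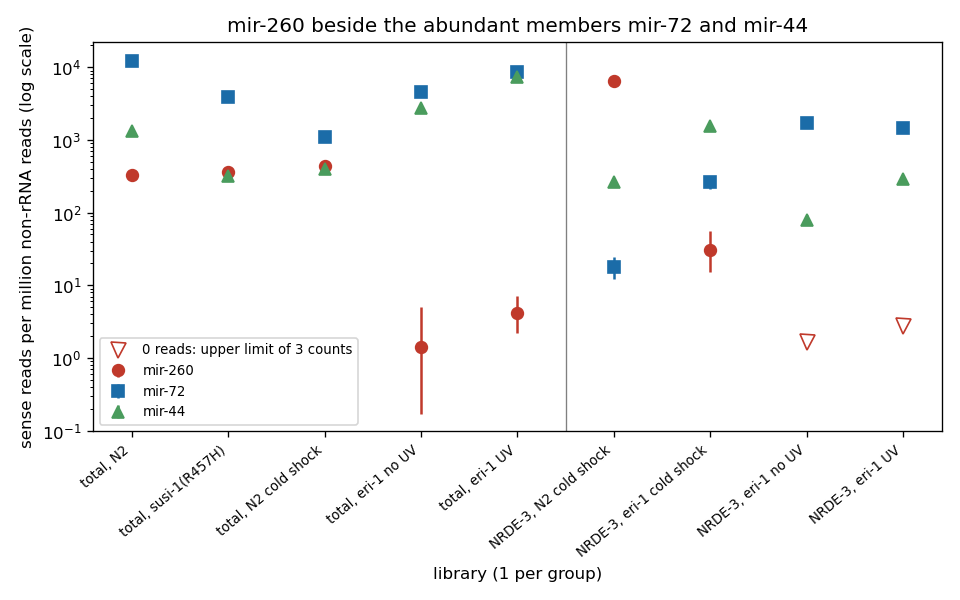
Level of mir-260, mir-72 and mir-44 in sense reads per 1000000 non-rRNA reads (log scale) in the 9 libraries (1 per group). Bars are 95% counting intervals, and open triangles mark the upper limit that 0 reads allow by counting error alone. mir-260 is at 333.1 to 441.8 CPM in the 3 total libraries with wild-type eri-1 and at 1.41 and 4.16 CPM in the total libraries with eri-1(mg366), and it falls from 6541 to 30.8 CPM between the NRDE-3 libraries after cold shock while mir-72 and mir-44 rise.

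The first comparison set susi-1(R457H) against N2 and asked which small RNAs differ when SUSI-1 is mutated. A member was called higher or lower when the pair had 50 or more reads, the CPM ratio was at least 2 or at most 0.5, and its exact conditional binomial 95% interval did not include 1. Of 23 members with enough reads 18 were lower, 1 was higher and 4 were neither, where 49.1% of all genes tested were called lower and 14.3% higher and 88.5% of the excluded microRNAs were lower. The median log2 ratio over 40 members with 20 or more reads was -1.38, and over 29 excluded microRNAs it was -1.36. Scaling to microRNA reads adds 1.38 to every log2 ratio, which leaves 0 members lower and 4 higher with a median of 0.00, beside 38.0% of all genes higher and 11.9% lower. Of the excluded microRNAs 3.85% were then higher and 3.85% lower. The members thus fell about as far as microRNA reads as a whole.

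The locus mir-246 moved the other way. It had 7 reads in N2 and 43 in susi-1(R457H), a ratio of 10.4 (4.63 to 27.3) in CPM and of 27.0 (12.0 to 71.0) relative to microRNA reads. It lies at IV:10940134-10940230 and has been tied to longer lifespan. Of its 43 reads in the mutant 34 were under the hairpin. The locus mir-262, with 5 reads in N2 and 26 in the mutant, had a ratio of 8.78 (3.32 to 29.3) on fewer than 50 reads, and 33 of its 34 total reads were under the hairpin; it was singled out after its values were seen.

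The other members with 50 or more reads that were not called lower in CPM were mir-260 (ratio 1.09, 0.918 to 1.29), mir-2214 (1.20, 0.774 to 1.84), mir-238 (0.859, 0.534 to 1.36) and mir-243 (0.720, 0.450 to 1.13). Relative to microRNA reads the first 3 were called higher, at 2.83 times N2 for mir-260 and 2.23 times for mir-238, and at a log2 ratio of 1.64 for mir-2214. The value of mir-238 rests on its hairpin entry, which held 29 of its 30 reads in the mutant. Its mature entries went from 26 reads in N2 to 1 in the mutant. The locus mir-243 is known for loading into RDE-1, the Argonaute of exogenous RNA interference, instead of ALG-1. Ranked by the interval bound nearest 1, the lowest were mir-44 (0.236, 0.202 to 0.273), mir-45 (0.241, 0.206 to 0.280), mir-90 (0.303, 0.276 to 0.333) and mir-72 (0.311, 0.298 to 0.325), none of which was called when scaled to microRNA reads. By the ratio itself mir-258.1 (0.209), mir-233 (0.217) and mir-86 (0.230) were lower still, on fewer reads. Within the mir-72 group, mir-73 fell less by the sum over entries, to 0.412 times (0.390 to 0.436), an interval that does not meet that of mir-72. By mature entries mir-73 went from 3181 to 444 reads and mir-72 from 7291 to 1313, so mir-73 did not fall less there.

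The second comparison set N2 after cold shock against N2. Among 23 members 17 were lower, 2 higher and 4 neither, beside 65.6% of all genes lower and 22.7% higher. Their median log2 ratio was -1.85 over 39 members and -2.52 over 33 excluded microRNAs, and the described members summed to 0.176 times their N2 level (0.168 to 0.185). Scaling to microRNA reads adds 2.02 to each log2 ratio and turned the median to 0.17, with 5 members higher, 9 lower and 9 neither, beside 34.3% of all genes higher and 27.8% lower. The library with the larval and muscle microRNAs given above is the one after cold shock, and the part of its stage in these ratios was not tested.

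The member that rose most after cold shock among those with 50 or more reads was mir-71, which is needed for normal lifespan and for survival of starved larvae. It had 34 reads in N2 and 152 after cold shock, or 31.7 and 412.0 CPM, a ratio of 13.0 (8.91 to 19.4) that became 52.8 (36.2 to 79.1) relative to microRNA reads. Its host neighbour in the introns of ppfr-1, mir-2, had 54 and 10 reads, a ratio of 0.538 (0.244 to 1.07). The intervals of these ratios do not meet, although the loci lie 7061 nt apart on the same strand. The fall of mir-2 lies in its hairpin entry, which held 53 of its 54 reads in N2. Its mature 3p entry had 1 read in N2 and 5 after cold shock, and the mature 5p entry of mir-71 had 14 and 73. The contrast thus holds for the sum over entries and not for the mature entries. The other member called higher, mir-2214, had 55 and 42 reads (2.22-fold, 1.45 to 3.38), and mir-260 had a ratio of 1.33 (1.10 to 1.60).

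Some low-count members were also high in that library. The locus mir-59 had 2 reads in N2 and 25 after cold shock, mir-77 had 3 and 21, mir-47 had 12 and 34, and mir-353 had 11 and 20. Each had fewer than 50 reads in the pair, so none was called. Their CPM ratios of 36.3 (9.05 to 316.3), 20.3 (6.07 to 106.5), 8.23 (4.16 to 17.5) and 5.28 (2.41 to 12.2) had intervals above 1. These 4 were chosen after their values were seen.

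Ranked by the interval bound nearest 1, the largest falls after cold shock were those of mir-789.2, mir-244, mir-245 and mir-90. The locus mir-2209.1 also went from 65 reads to 0, at least 7.46-fold lower. The count of mir-789.2 went from 144 to 0, at least 16.5-fold lower, and both bounds are against a floor of 3 counts in the library. For mir-244 it went from 539 to 5 reads, 37.1-fold lower (15.8 to 114.8), and for mir-245 from 349 to 2 reads, a ratio of 0.0167 (0.0020 to 0.0606). For mir-90 it went from 2934 to 41 reads, 24.6-fold lower (18.1 to 34.4). All 5 stayed lower relative to microRNA reads, as did mir-72, which was 11.4-fold lower (10.3 to 12.6) in CPM and at 0.357 times N2 by microRNA reads.

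Members of a family had different ratios after cold shock. In the group of mir-50, mir-62 and mir-90, mir-50 had 385 and 19 reads (0.143 times, 0.0854 to 0.227), an interval above that of mir-90, and mir-62 had 1 and 0, and the summed ratio was 0.0525 (0.0400 to 0.0678). The pair mir-44 and mir-45 was lower in CPM, with a summed ratio of 0.287 (0.253 to 0.325), but had log2 ratios of 0.29 and 0.17 by microRNA reads, where neither locus was called. The pair mir-46 and mir-47 summed to 1.40 times N2 (1.00 to 1.95). Its members differed, with mir-46 at 0.614 times (0.369 to 0.980) and mir-47 at 8.23 times.

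The third comparison set eri-1 with UV against eri-1 without UV in total small RNA. Of 53 members 14 were higher, 2 lower and 37 neither, where 15.6% of all genes were higher and 10.2% lower. The median log2 ratio was 0.67 over 66 members and 0.66 over 32 excluded microRNAs. Scaling to microRNA reads takes 0.64 off every log2 ratio and left 5 members higher, 9 lower and 39 neither, with a median of 0.04, beside 5.81% of all genes higher and 21.9% lower. As in susi-1(R457H), most of the shift was thus shared with the other microRNAs.

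Higher on both scales were mir-239.2, mir-795, mir-1832.1, mir-248 and mir-86. The locus mir-239.2, whose loss with its neighbour is known to lengthen life, had 5 reads without UV and 67 with UV, a ratio of 6.08 (2.48 to 19.3), and no read in the other 7 libraries. The ratio of mir-795 was 4.79 (2.21 to 12.3) on 7 and 74 reads, and that of mir-1832.1, nearly all of it hairpin, was 3.52 (2.31 to 5.57) on 25 and 194 reads. The locus mir-86 went from 60.7 to 189.2 CPM, 3.12-fold (2.48 to 3.95). The ratios of mir-44 and mir-45 were 2.65 (2.56 to 2.74) and 2.61 (2.52 to 2.70) in CPM, but these loci were not called by microRNA reads.

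Lower with UV were mir-234, from 32 to 27 reads (0.383 times, 0.221 to 0.659), and mir-83, with 118 reads in each library (0.453 times, 0.348 to 0.590). Both stayed lower relative to microRNA reads. The abundant loci mir-244 and mir-258.2 had ratios of 0.550 (0.506 to 0.597) and 0.548 (0.488 to 0.615) and were neither in CPM, and both were called lower by microRNA reads. The paralogue mir-258.1 had a ratio of 1.49 (1.35 to 1.65), whose interval does not meet that of mir-258.2. These copies, 9320 nt apart on X, thus had CPM ratios on opposite sides of 1, while by microRNA reads mir-258.1 was at 0.956 times (0.864 to 1.06) and mir-258.2 at 0.352 times.

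Members of the lists tied to stress were few and low. The locus mir-34, known for its part in the response to radiation, had 1 read without UV and 9 with UV. The ratios of mir-71 and mir-238 were 1.66 (0.863 to 3.46) and 1.87 (1.38 to 2.57), and that of mir-246 was 0.699 (0.498 to 0.987). Of the 4 members of that list with 50 or more reads, 1 was higher and 3 were neither, beside 15.6% of all genes higher, and by microRNA reads 1 was higher, mir-246 was lower and 2 were neither. Among members with known neuronal roles, lsy-6, which sets left and right taste neurons apart, had 13 and 37 reads, mir-790 had 18 and 120 (3.02-fold, 1.83 to 5.27), and mir-793 had 64 and 183 (1.30-fold, 0.970 to 1.75). In the intestine and epidermis list mir-60 had 10 and 51 reads (2.31-fold, 1.16 to 5.11) and mir-79 had 18 and 57 (1.44-fold, 0.833 to 2.59).

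**Figure D4:**
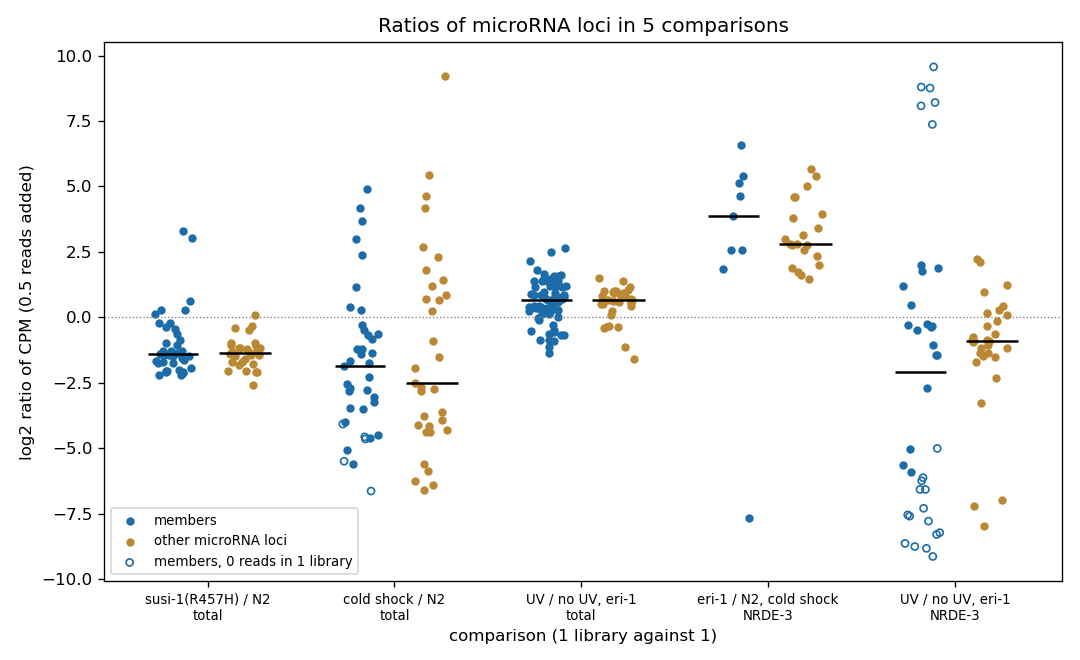
log2 ratio of CPM (0.5 reads added to each count) for members (blue, open where 1 library had 0 reads) and excluded microRNA loci (ochre, all filled) in the 5 comparisons, 1 library against 1, for loci with 20 or more reads in the pair, with medians as black lines. Medians of members and others lie close in susi-1(R457H) (-1.38 and -1.36) and with UV in total RNA (0.67 and 0.66), and the members' medians there move to 0.00 and 0.04 when scaled to microRNA reads. The lone member below 0 in eri-1 against N2 is mir-260 at -7.67.

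The fourth comparison set the NRDE-3 library from eri-1 against that from N2, both after cold shock. Of 7 members with enough reads, 6 were higher and mir-260 alone was lower, beside 88.9% of all genes higher and 9.82% lower. The median log2 ratio was 3.89 over 9 members and 2.80 over 21 excluded microRNAs. The count of mir-90 was 3 in N2 and 62 in eri-1, a ratio of 111.8 (36.5 to 556.8), that of mir-71 was 7 and 58 (44.8, 20.4 to 116.4), that of mir-73 was 151 and 704 (25.2, 21.1 to 30.3) and that of mir-72 was 34 and 94 (14.9, 10.0 to 22.8). The pair mir-44 and mir-45 had ratios of 5.89 (5.21 to 6.66) and 5.99 (5.27 to 6.81). Scaling to microRNA reads takes 1.65 off these log2 ratios and the median-of-ratios factor takes 3.68 off. By microRNA reads 4 members were higher, 1 lower and 2 neither, beside 78.0% of all genes higher and 10.6% lower. The loci mir-44 and mir-45 were not called on that scale. By the median-of-ratios factor mir-44 and mir-45 were lower in eri-1 (-1.13 and -1.10). By that factor mir-72 (1.16, 0.778 to 1.78) and mir-73 (1.96, 1.64 to 2.35) were not called, while mir-260 stayed lower on both scales. The locus mir-260 held 12646 of the 26154 microRNA reads in the NRDE-3 library from N2. The scale by microRNA reads is thus set in part by mir-260 itself, and a scale without it is not given. All 19 of the excluded microRNAs with enough reads were higher in CPM as well, 100.0% of those tested.

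The fifth comparison set the NRDE-3 library from eri-1 with UV against that without UV. Among 37 members 10 were higher, 21 lower and 6 neither, where 40.8% of all genes were higher and 34.4% lower. Their median log2 ratio was -2.08, and -1.93 with zero counts set to 3, over 38 members of which 21 had no read in 1 of the libraries. By microRNA reads 11 members were higher, 18 lower and 8 neither, beside 57.6% of all genes higher and 29.5% lower. Members were often present in only 1 library. Reads with UV and none without were found for mir-49 (231), mir-2214 (135), mir-76 (132), mir-67 (90), mir-71 (82) and mir-255 (50), at least 126.4-fold higher for mir-49. Reads without UV and none with UV were found for mir-1022 (462), mir-74 (374), mir-59 (327) and mir-83 (246) among others, mir-236 and mir-245 included, at least 93.8-fold lower for mir-1022 and 72.3-fold for mir-245. These are the 2 libraries with few low counts given above, in which a locus tends to have many reads or none. The part of that in these calls was not tested. Among the calls, mir-255 and mir-2220 (78 reads without UV, 0 with UV) passed the read minimum only through these NRDE-3 reads. Their calls are thus not independent of how members were chosen.

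Of the members with reads in both of these libraries, mir-232, mir-243 and mir-787 had 80, 122 and 147 reads without UV and 1 each with UV. Others had ratios nearer 1. The counts of mir-72 were 3053 without UV and 1563 with UV (0.840 times, 0.790 to 0.893), and those of mir-73 were 1093 and 522 (0.784 times, 0.705 to 0.871), values that turn to log2 ratios of 1.00 and 0.90 by microRNA reads without a call. The locus mir-244, the most abundant member without UV at 2299 CPM, was at 352.4 CPM with UV, 6.53-fold lower (5.88 to 7.26). The locus mir-90 was 2.73-fold lower (2.50 to 2.99) in CPM, but by microRNA reads it was at 0.870 times (0.794 to 0.952) without a call. The pair mir-44 and mir-45 was higher with UV by 3.68-fold (3.01 to 4.52) and 3.42-fold (2.81 to 4.18), and mir-86 by 2.28-fold (1.93 to 2.70), directions they also had in CPM in total RNA. The excluded microRNAs had a median of -0.89 over 30 loci.

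Last, 3 of the 4 NRDE-3 libraries were set beside a total library of matched treatment, and the one from eri-1 after cold shock was not. No control immunoprecipitate was used here, so a level in an NRDE-3 library does not show binding. After cold shock in N2, mir-260 was the 1 member higher of 6, 3 were lower and 2 were neither, beside 30.4% of all genes higher and 60.0% lower. By microRNA reads 3 members were higher and 3 lower, beside 39.4% of all genes higher and 53.8% lower. Of the excluded microRNAs 5.88% were then higher and 58.8% lower. This scale is set in part by mir-260, as given above. In CPM mir-71 was 113.8-fold lower (53.9 to 287.8) and mir-72 61.5-fold lower (43.3 to 90.1) than in the total library. In eri-1 without UV, 20 of 43 members were higher, 16 lower and 7 neither, beside 10.9% of all genes higher and 82.9% lower. Of the excluded microRNAs 26.7% were higher and 56.7% lower in this pair. The 20 include mir-2220, which passed the read minimum only through this NRDE-3 library. Among the higher were mir-74 (19.8-fold, 11.9 to 35.7), mir-787 (19.4-fold, 8.72 to 53.9), mir-59 (16.2-fold, 9.84 to 28.7), mir-254 (13.5-fold, 8.28 to 23.5) and mir-1820 (13.2-fold, 9.48 to 18.8).

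In that pair mir-49 had 1625 reads in total RNA and 0 in the NRDE-3 library, at least 682.3-fold lower, and mir-258.2 and mir-258.1 had 541 and 490 reads and 0. The abundant mir-44 was at 0.0285 times (0.0240 to 0.0338) and mir-45 at 0.0315 times (0.0266 to 0.0370) their total level. In eri-1 with UV, 8 of 50 members were higher, 37 lower and 5 neither, beside 7.08% of all genes higher and 86.6% lower. Of the excluded microRNAs 10.3% were higher and 75.9% lower. The 8 include mir-255, which passed the read minimum only through the NRDE-3 library with UV. Higher in both pairs were mir-1820 (10.1-fold with UV, 7.40 to 14.0), mir-254 (5.51-fold, 4.13 to 7.41) and mir-60 (7.33-fold, 5.26 to 10.3). The loci mir-258.1, mir-258.2, mir-1018 and mir-2209.1 had no read in either NRDE-3 library of the UV experiment.

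The high-numbered members, mir-784 and above, were mostly low. They came to 106 loci, of which 25 were described. The highest over the total libraries were mir-1018 with 667 reads, mir-2209.1 with 641, mir-1829.2 with 345, mir-785 with 324 and mir-793 with 285. Then came mir-789.2 with 257 reads, mir-1832.1 with 248, mir-2214 with 204, mir-1022 with 182 and mir-790 with 143. The loci mir-1820, mir-5592.1, mir-1829.3 and mir-4813 had 129, 116, 112 and 110 reads, and the remaining 11 had 5 to 85: mir-787, mir-788, mir-789.1, mir-795, mir-1822, mir-1829.1, mir-1830, mir-2212, mir-2220, mir-4916 and mir-4926. In susi-1(R457H) this list had 0 higher, 2 lower and 1 neither among 3 members with enough reads, after cold shock 1 higher and 2 lower among 3, and with UV in total RNA 5 higher, 0 lower and 11 neither among 16. The shares over all genes in these comparisons were 14.3% higher and 49.1% lower, 22.7% and 65.6%, and 15.6% and 10.2%. By microRNA reads the list had 1 higher, 0 lower and 2 neither in the mutant and the same counts as in CPM after cold shock. With UV it had 2 higher, 2 lower and 12 neither. All genes were then 38.0% higher and 11.9% lower in the mutant, 34.3% and 27.8% after cold shock, and 5.81% and 21.9% with UV.

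Small groups differed in depth. The mirtron mir-62, spliced out of ugt-50 rather than cut by Drosha, had 23 reads over the total libraries, and mir-1018, whose hairpin overlaps no gene on its strand in the annotation used, was the other described locus of the mirtron list. The loci mir-240, mir-252 and mir-43 had 54, 37 and 48 reads, too few for a call in any pair. In the mir-2 group, with UV in total RNA, the ratios of mir-2 and mir-250 were 1.09 (0.870 to 1.37) and 0.995 (0.780 to 1.28), within counting error of no difference in CPM. By microRNA reads they were 0.6995 (0.559 to 0.880) and 0.639 (0.501 to 0.820), intervals below 1 but without a call. The loci mir-87 and mir-233 had ratios of 0.332 (0.200 to 0.527) and 0.217 (0.0953 to 0.436) in susi-1(R457H), and mir-785 had 19 and 4 reads there.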

How the data were processed

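Small RNAs of 20 to 30 nt were treated with phosphatase and kinase, gel-purified, ligated and sequenced, per the labels' protocols. The authors deposited raw counts of sense and antisense reads per entry. Bowtie2 is named in the submitters' processing notes, without a version, and the genome build and the treatment of reads with several matches are not given in the sources used here. Sense counts of hairpin and mature entries were summed per locus, since multiple matches between them cannot be resolved. The 9 small RNA libraries were used and the 5 rRNA tail libraries were not. No column without a sample was used.

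Counts were divided by the reads not assigned to rRNA. Pairs of libraries were compared by ratios with exact conditional binomial (Clopper-Pearson) 95% intervals (scipy 1.17.1, Python 3.11.15), checked on simulated counts. A call needed 50 reads in the pair, a ratio of at least 2 or at most 0.5 and an interval without 1. For log2 ratios 0.5 reads were added. Reads of PCR libraries are not independent molecules, so intervals and the floor of 3 counts cover counting error only. Depth is given with the results. Count models across replicates were not used because each group had 1 library. Positions and host genes came from Ensembl release 115 (WBcel235) by sequence name, for 80 of 80 described loci. Mature sequences are not shown here.

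Named members were the 12 most abundant in total and 6 in NRDE-3 libraries, the 4 highest and 4 lowest of each of 5 comparisons by the interval bound nearest 1, and described members of 17 lists. Members and lists were chosen with earlier results of these data known. Alternatives were scaling to microRNA reads, a median-of-ratios factor as DESeq2 computes it, no read minimum and, chosen after seeing the data, leaving out members counted mainly on the hairpin.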

Additional observations from a re-analysis of the deposited data

Results flagged for a closer look

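Antisense reads of members were outside the main measurement and in 8 cases were above 3 counts and above the control library in CPM. In total RNA from eri-1 with UV they numbered 84 for mir-5592.2, against 22 without UV. In the same library there were 8 for mir-356.1, 6 for mir-260, and 4 each for mir-2214, mir-354 and mir-79, against 0 or 1 without UV. In the NRDE-3 library from eri-1 after cold shock there were 8 for mir-2217 and 4 for mir-5592.2, against 3 and 1 in N2. The hairpin of mir-5592.2 (X:13759247-13759310, plus) lies opposite that of mir-5592.1 (X:13759245-13759308, minus), whose sense reads numbered 84 with UV and 14 without UV.

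For 3 members the call with UV was higher in total RNA and lower in NRDE-3 RNA, and this difference was not tested. The log2 ratios were 1.15 and -8.30 for mir-236, 1.18 and -8.83 for mir-74, and 1.34 and -7.79 for mir-87, and each had 0 reads in the NRDE-3 library with UV.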

How the results depend on the processing

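With 1 library per group no replicate could be left out. No paired analysis was possible because the groups have 1 library each and share no second replicate number. Scaled to microRNA reads, members higher, lower and their median log2 ratio were 4, 0 and 0.00 in susi-1(R457H) against N2 (1, 18 and -1.38 as reported), 5, 9 and 0.17 after cold shock (2, 17 and -1.85), and 5, 9 and 0.04 with UV in total RNA (14, 2 and 0.67). The median became 2.24 in eri-1 against N2 in NRDE-3 RNA and -0.83 with UV in NRDE-3 RNA. For NRDE-3 against total it became -3.87, 0.86 and -1.79 in N2, eri-1 without UV and eri-1 with UV. The last of these was 0.41 with zero counts set to 3, where 42 of 63 members had no read in 1 library. The values 2.24 and -3.87 rest on a microRNA total that mir-260 raises in the NRDE-3 library from N2. In the N2 pair 3 members were higher and 3 lower, beside 39.4% of all genes higher and 53.8% lower. In the pair of eri-1 with UV 16 were higher and 21 lower, beside 17.3% and 40.4% of all genes. Of the excluded microRNAs in the latter pair 37.9% were higher and 37.9% lower. With the median-of-ratios factor, susi-1(R457H) had 2 higher, 5 lower and a median of -0.55, the cold shock median was -0.39, UV in total RNA had 5 lower and a median of 0.50, and eri-1 against N2 had 2 higher, 3 lower and 0.20. The medians with UV in NRDE-3 RNA and in the 3 NRDE-3 against total pairs were -2.30, -4.32, 1.92 and -4.46. The last was -2.26 with zero counts set to 3. By this factor 700 of 2264 genes were higher and 503 lower in susi-1(R457H). With UV in total RNA 624 of 5114 genes were lower. In eri-1 against N2 355 of 1588 genes were higher and 357 lower.

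With no read minimum there were 2 higher, 28 lower and -1.27 in susi-1(R457H), 10 higher and -1.17 after cold shock, 19 higher and 4.02 in eri-1 against N2, 35 lower and -4.71 in NRDE-3 against total N2, 42 lower and -3.14 in that pair of eri-1 without UV, and -4.45 with UV. Without members counted mainly on the hairpin, cold shock had 1 higher and -2.20, eri-1 against N2 had 0 lower and 4.27, and UV in NRDE-3 RNA had -2.70. No shares over all genes are given for these settings, so the counts show only how the members' calls change.

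Among named members called on either scale, scaling to microRNA reads turned the sign of mir-2 (0.01), mir-238 (1.17), mir-244 (0.11), mir-49 (0.31), mir-73 (0.10) and mir-789.2 (0.11) in susi-1(R457H), mir-238 (0.37), mir-44 (0.29), mir-45 (0.17), mir-46 (1.35), mir-49 (1.56) and mir-86 (0.80) after cold shock, and mir-1820 (0.21) with UV in NRDE-3 RNA. The median-of-ratios factor reversed mir-86 (0.24) after cold shock and mir-44 (-1.13) and mir-45 (-1.10) in eri-1 against N2. Over the 5 comparisons the named values kept their call, or stayed without one, in 80 cases by microRNA reads and 105 by that factor, while 30 and 20 lost a call and 10 and 5 gained one. Of those 80 and 105, 19 and 7 had no call on either scale and turned sign, 13 of the 19 with UV in total RNA. Apart from the scaling that each alternative applies, the cause was not tested. The libraries with fewest non-rRNA reads limit what can be seen: 0 reads allow up to 8.13 CPM in total N2 after cold shock and 8.39 CPM in the NRDE-3 library from eri-1 after cold shock.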
